A study of Homo sapiens with 4 samples.

Results

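Heat shock proteins are chaperones, proteins that bind unfolded or partly folded chains and help them reach or keep their shape. The HSP70 and HSP90 machines work through ATP cycles that are driven by J-domain proteins (HSP40) and by cochaperones such as the BAG proteins, and the cytosolic chaperonin CCT, also called TRiC, folds tubulin and actin inside stacked rings of 8 different subunits. Under proteotoxic stress the transcription factor HSF1 binds heat shock elements in DNA and induces a part of these genes, whereas other members are transcribed constitutively at high levels in growing cells. The 40 genes described here are a list of heat shock factors, heat shock proteins, cochaperones and CCT subunits, taken by symbol from the 23228 genes of the count files. All 40 were found, and 38 of them passed the expression filter and were tested. HSPA2, a testis-enriched HSP70, and CRYAB, the small heat shock protein αB-crystallin, did not pass it, with at most 9 reads in any sample.

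RNA was sequenced from SKOV3-ALDH+ OCSCs after 24 h with vehicle (2 samples) or with 5 µM LY500307 (2 samples). SKOV3 is a long-established human line from an ovarian cancer, OCSCs are its ovarian cancer stem cells sorted for aldehyde dehydrogenase activity with the ALDEFLUOR kit and grown as spheroids, and LY500307 is an agonist of estrogen receptor beta (ERβ). Both groups came from the same sorted line and carried no other agent or allele by their labels, so all comparisons concern 1 cell line. In such bulk RNA, fewer cells of a type and less RNA per cell cannot be told apart. The labels do not say whether the samples of a group were separate cultures, and p-values then measure only the spread between these samples, which may be technical. Between 28841701 and 34943882 reads were counted on genes in each sample. Of the epithelial markers checked, EPCAM was at 194 to 240 CPM (read counts scaled to a common library size), ERBB2 at 48.7 to 59.4 and KRT18 at 23.5 to 31.8, whereas KRT8, the usual partner of KRT18, had 9 to 33 reads, PAX8 had no read and KRT19, WT1 and MUC16 had at most 6. Of the 3 aldehyde dehydrogenases checked, ALDH1A2 had the most reads, 315 to 347, and the leukocyte and endothelial markers PTPRC, CD3E, PECAM1 and VWF had at most 11 reads. CD14 had 6 to 22 reads. LY500307 replicate 2 stood apart from the other samples. It had the smallest share of reads on no gene (25.5% against 28.4% to 30.8%), and the LY500307 samples differed from each other with a chi-square of 42.5 per degree of freedom, against 5.16 for the vehicle pair. The members together took 1.25% of its gene counts, against 1.39% to 1.41% in the other 3 samples.

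HSF1 acts through heat shock elements, and 7 promoter windows are printed here because the results below turn on these genes. Each window runs from 250 bases before to 50 bases after a RefSeq start (GRCh38.p14, 5′ to 3′), and capitals mark paired heat shock units, GAANNTTC or TTCNNGAA, which read the same on both strands and may overlap. The first 3 belong to members that were higher in both LY500307 samples, the next 3 to abundant members that were not, and the last to HSPE1. For a gene with several windows, the one with the most paired units is printed. The other windows of DNAJB1, HSP90AA1 and HSP90AB1 had fewer or none.
HSPA1B, chr6:31827488-31827787, plus strand: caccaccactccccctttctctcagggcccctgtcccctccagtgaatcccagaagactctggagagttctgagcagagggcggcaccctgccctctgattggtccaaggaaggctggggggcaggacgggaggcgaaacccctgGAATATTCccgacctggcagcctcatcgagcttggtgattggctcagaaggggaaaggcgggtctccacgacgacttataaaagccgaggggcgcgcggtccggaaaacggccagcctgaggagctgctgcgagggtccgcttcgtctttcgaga
HSPB1, chr7:76302423-76302722, plus strand: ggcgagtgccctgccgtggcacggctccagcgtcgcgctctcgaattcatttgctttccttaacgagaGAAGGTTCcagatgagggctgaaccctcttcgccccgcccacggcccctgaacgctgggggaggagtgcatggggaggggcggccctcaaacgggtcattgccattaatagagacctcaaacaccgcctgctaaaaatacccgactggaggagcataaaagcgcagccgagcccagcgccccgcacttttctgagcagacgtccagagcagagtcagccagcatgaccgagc
DNAJB1, chr19:14518348-14518647, minus strand: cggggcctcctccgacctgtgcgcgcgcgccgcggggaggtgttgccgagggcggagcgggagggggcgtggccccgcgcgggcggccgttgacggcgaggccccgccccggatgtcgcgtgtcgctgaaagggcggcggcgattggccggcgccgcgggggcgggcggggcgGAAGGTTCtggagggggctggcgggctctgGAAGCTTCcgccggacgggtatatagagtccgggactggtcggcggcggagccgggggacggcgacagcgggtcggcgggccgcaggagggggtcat
HSP90AA1, chr14:102086995-102087294, minus strand: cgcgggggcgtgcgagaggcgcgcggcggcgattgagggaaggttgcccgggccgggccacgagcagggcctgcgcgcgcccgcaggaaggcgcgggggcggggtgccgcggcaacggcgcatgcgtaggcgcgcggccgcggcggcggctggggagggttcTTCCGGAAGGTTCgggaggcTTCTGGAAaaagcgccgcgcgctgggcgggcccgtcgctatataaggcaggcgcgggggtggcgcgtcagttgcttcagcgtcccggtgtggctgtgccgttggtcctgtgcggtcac
HSP90AB1, chr6:44247693-44247992, plus strand: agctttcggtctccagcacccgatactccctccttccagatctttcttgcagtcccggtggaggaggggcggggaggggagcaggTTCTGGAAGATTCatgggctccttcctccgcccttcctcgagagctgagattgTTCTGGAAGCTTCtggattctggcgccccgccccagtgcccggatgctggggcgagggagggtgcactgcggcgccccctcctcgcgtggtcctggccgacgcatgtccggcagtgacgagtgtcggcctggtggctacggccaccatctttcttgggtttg
HSPA8, chr11:123062087-123062386, minus strand: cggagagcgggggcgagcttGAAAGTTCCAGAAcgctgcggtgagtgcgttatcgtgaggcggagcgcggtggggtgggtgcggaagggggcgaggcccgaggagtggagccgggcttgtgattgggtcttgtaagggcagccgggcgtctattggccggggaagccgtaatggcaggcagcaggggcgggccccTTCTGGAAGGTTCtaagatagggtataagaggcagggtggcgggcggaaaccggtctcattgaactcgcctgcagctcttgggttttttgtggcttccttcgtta
HSPE1, chr2:197500129-197500428, plus strand: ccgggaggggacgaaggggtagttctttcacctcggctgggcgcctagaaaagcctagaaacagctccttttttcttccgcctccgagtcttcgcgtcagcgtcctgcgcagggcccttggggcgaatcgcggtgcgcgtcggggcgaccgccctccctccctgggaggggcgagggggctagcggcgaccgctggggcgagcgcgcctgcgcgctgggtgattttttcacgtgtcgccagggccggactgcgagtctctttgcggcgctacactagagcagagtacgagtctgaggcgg

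A paired unit was found in 42% of the 50 member windows and in 13.5% of all 35116 RefSeq windows of this length. A run of 3 units in a row, GAANNTTCNNGAA or its reverse complement TTCNNGAANNTTC, was found in 14% of the member windows and in 0.49% of all windows. By gene, 36 members had a window. A paired unit was found in 20 of them (55.6%), against 16.2% of all 27305 genes with a window. A run of 3 units was found in 7 of them (19.4%), against 0.608% of all these genes. These 7 were HSPA6, HSPA8, HSP90AA1, HSP90AB1, HSPD1, DNAJA1 and DNAJB6. The windows of HSPA1A and HSPA1L, which are transcribed in opposite directions, shared 241 bases. The paired unit found in each of these windows was the same site, which was therefore counted for both genes. The HSPE1 window shared 204 bases with the HSPD1 window from 197500225 to 197500524, which had no match. The run of HSPD1 lay in its other window, from 197499791 to 197500090, which ended before the HSPE1 window began at 197500129. These matches describe the letters in the windows and not bound sites.

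Most members differed little between vehicle and LY500307, and none had an adjusted p below 0.05 in the test on all 4 samples. With edgeR's quasi-likelihood test and Benjamini-Hochberg adjustment over the 14473 genes tested, the adjusted p of the 38 members lay between 0.422 and 0.939. With DESeq2, 0 members had an adjusted p below 0.05 as well. Fits with 1 treated sample left out take the spread from the vehicle pair alone, and the number of calls over all genes is not given for them. At an unadjusted p below 0.05, 4 members were higher with LY500307 (HSPB1, HSPA1B, DNAJB1 and HSPE1), where 6.09% of all genes tested were called in this direction. The other 2 called members were lower (HSPA1L and DNAJB4), where 5.5% of all genes were called. With a log2 fold change above 0.5 in size as a further criterion, HSPA1B and HSPE1 were called higher and HSPA1L lower, against 2.76% and 1.86% of all genes. DESeq2 gave 2 members with an unadjusted p below 0.05, HSPB1 and HSPA1B. Of the 38 members, 15 had a positive log2 fold change, where 50% of all genes had one. The median log2 fold change was -0.08 over the members and 0.00 over all genes (-5.6e-05). Both LY500307 samples lay above both vehicle samples for 8 members and below them for 12, where 24.2% and 24.4% of all genes were separated in these directions. For any 1 member, 2 samples against 2 allow no two-sided p under 0.333 by exact permutation.

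**Figure D1:**
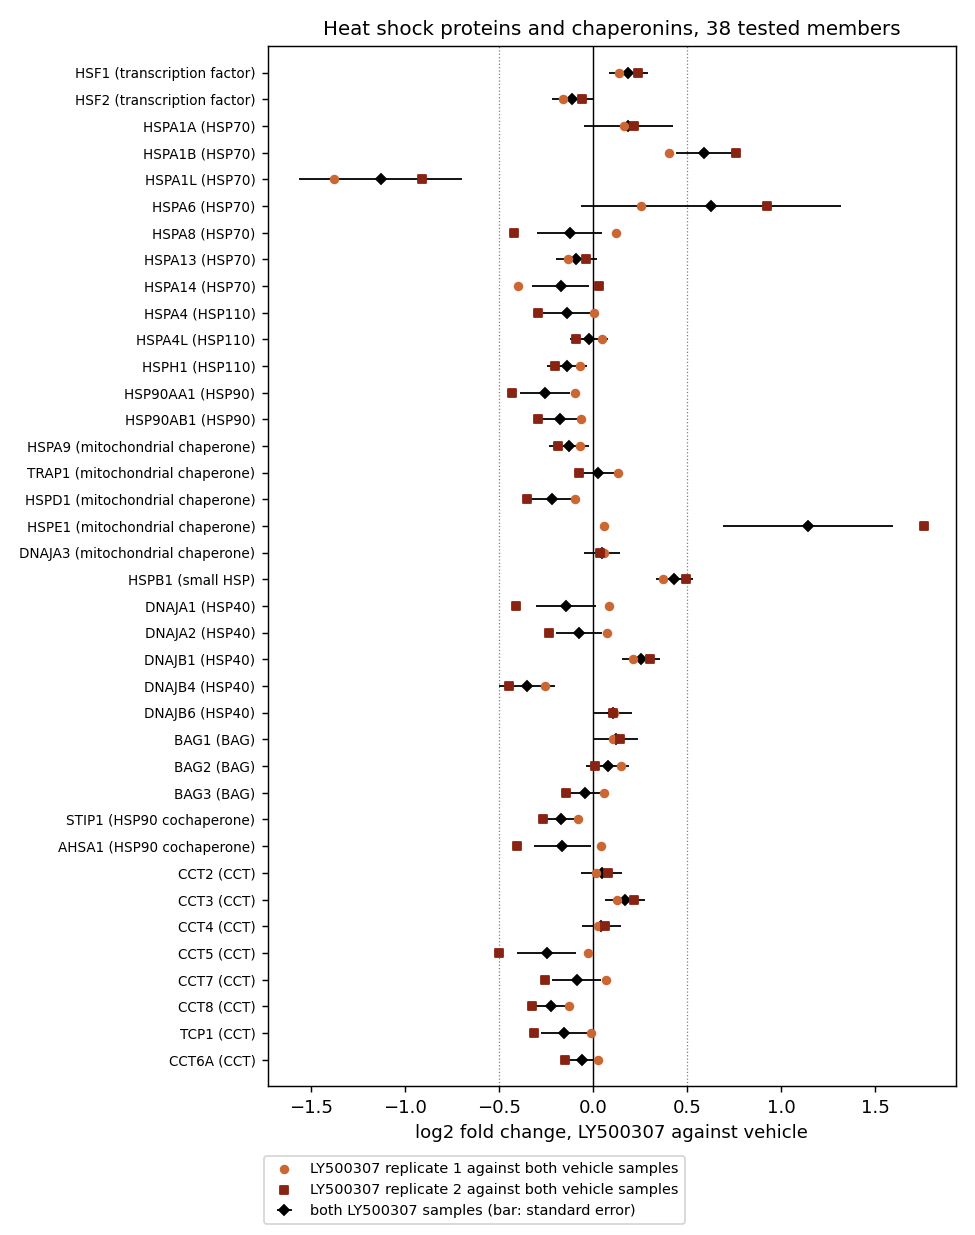
Log2 fold change of LY500307 against vehicle for the 38 tested members, with the standard error of the edgeR fit (diamonds and bars) and the value of each LY500307 sample against both vehicle samples (circles and squares), dotted lines marking 0.5 in size. HSPB1, HSPA1B and DNAJB1 lie right of 0 in both samples, and the 1.76 of HSPE1 in LY500307 replicate 2 stands alone beside 0.06 in replicate 1.

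The 2 LY500307 samples did not place the members alike. Against both vehicle samples, the median log2 fold change of the members was 0.05 for LY500307 replicate 1 and -0.12 for replicate 2. Without LY500307 replicate 2, 24 members had a positive log2 fold change, in place of 15. Fold changes in these libraries also moved with base composition. The median log2 fold change was -0.12 for the 2385 tested genes with transcripts under 40% GC and 0.14 for the 2242 genes over 60% GC. Between the LY500307 samples, the median log2 ratio of replicate 2 to replicate 1 was 0.14 for the 953 genes with transcripts under 1000 bases and -0.03 for the 5436 genes over 4000 bases. After correction for GC content the median log2 fold change of the members was -0.04, and 17 members were positive. The part of GC content and length in single values was examined only through the corrections stated.

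HSF1, the master transcription factor of the heat shock response, was at 62.4 and 64.9 CPM with vehicle and at 69.8 and 75.1 CPM with LY500307. Both LY500307 samples lay above both vehicle samples, with a log2 fold change of 0.19 (standard error 0.10) that was not called. The HSF1 transcript has 63.9% GC, and the log2 fold change was 0.05 after correction for GC content. HSF2, a related factor that can pair with HSF1, was at 53.2 and 50.7 CPM with vehicle and at 46.4 and 49.8 CPM with LY500307, for a log2 fold change of -0.11 (standard error 0.11). With 39% GC, HSF2 was at -0.00832 after correction for GC content.

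HSPB1, known as HSP27, is an ATP-independent small heat shock protein that holds unfolding proteins in solution. It was at 116 CPM in each vehicle sample, and at 150 and 163 CPM in the LY500307 samples. Both treated samples were therefore above both controls, with group values of 116 ± 0.292 CPM (SD, n = 2) and 157 ± 9.44 CPM (SD, n = 2). The log2 fold change was 0.43 (standard error 0.10, unadjusted p = 0.00238, edgeR adjusted p = 0.422), and it was 0.37 for LY500307 replicate 1 and 0.50 for replicate 2. HSPB1 has a short transcript of 777 bases with 65.3% GC. After correction for GC content its log2 fold change was 0.28 (unadjusted p = 0.0172), and after correction for transcript length, which was added once the data had been seen, 0.28 as well. The call was lost with the replicate block and GC correction together (0.28, unadjusted p = 0.0542). Without vehicle replicate 1 or vehicle replicate 2 the call was lost at log2 fold changes of 0.43 and 0.44 (unadjusted p = 0.0652 and 0.0618). In GRCh37, HSPB1 occupies bases 75931990 to 75933612 of chromosome 7 (plus strand).

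HSPA1B and HSPA1A encode the stress-inducible HSP70 and are near-identical copies on chromosome 6. HSPA1B was at 29.7 and 27.2 CPM with vehicle and at 37.6 and 48.1 CPM with LY500307. The groups did not overlap, and the treated samples differed from each other by more than the controls did (28.4 ± 1.81 and 42.9 ± 7.41 CPM, SD, n = 2 each). The log2 fold change was 0.59 (standard error 0.15, unadjusted p = 0.00431, edgeR adjusted p = 0.422), and 0.497 after correction for GC content. HSPA1B had an unadjusted p below 0.05 in every alternative run. It no longer passed the further criterion of 0.5 after the GC correction alone, together with the replicate block (0.492) or without LY500307 replicate 2 (0.41), and its value was 0.76 without replicate 1. HSPA1A was at 3.37 and 3.03 CPM with vehicle and at 3.57 and 3.71 CPM with LY500307, for a log2 fold change of 0.19 (standard error 0.24) that was not called and was 0.09 after correction for GC content. Of the windows of 50 bases, the read length given by the labels, 75.1% in the HSPA1A transcript and 71.6% in the HSPA1B transcript had an exact copy elsewhere in GRCh37. Reads that aligned to more than 1 place were tallied apart from the genes, so both levels rest on the remaining sequence and how the reads are divided between the copies is uncertain. The ratio of HSPA1B to HSPA1A counts was 8.82 and 8.98 in the vehicle samples and 10.5 and 13 in the LY500307 samples. In GRCh37, HSPA1B occupies bases 31795515 to 31798031 of chromosome 6 and HSPA1A bases 31783320 to 31785723, both on the plus strand.

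HSPA1L, a testis-enriched HSP70, starts beside HSPA1A on the opposite strand, from 31777396 to 31783060. It had 39 and 36 reads with vehicle and 17 and 22 reads with LY500307. The groups did not overlap, and the log2 fold change was -1.13 (standard error 0.43, unadjusted p = 0.0308, edgeR adjusted p = 0.422). The call was lost with DESeq2 (unadjusted p = 0.0843) and without any 1 of the 4 samples, where the log2 fold change was -1.38 when LY500307 replicate 2 was left out and -0.91 when LY500307 replicate 1 was. Without vehicle replicate 1 it was -1.11 and without vehicle replicate 2 it was -1.15. HSPA6, a strictly inducible HSP70, had 7 and 39 reads with vehicle and 33 and 49 reads with LY500307. Its groups overlapped, and its log2 fold change of 0.62 (standard error 0.69) became 2.38 without vehicle replicate 2 and -0.16 without vehicle replicate 1. HSPA2 had 5 and 4 reads with vehicle and 8 and 7 with LY500307, and was not tested.

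HSPA8, the constitutive cytosolic HSP70 (HSC70), was at 1701 and 1744 CPM with vehicle and at 1873 and 1286 CPM with LY500307. The controls lay between the treated values. For HSPA8 the fitted log2 fold change was -0.12 (standard error 0.17), and it turned to 0.12 without LY500307 replicate 2 and was -0.42 without replicate 1. HSPA8 counts were 51.4 and 57.8 times the summed counts of HSPA1A and HSPA1B in the vehicle samples, and 45.5 and 24.8 times in the LY500307 samples. These counts leave out reads with more than 1 alignment. Copied windows made up 75.1% of HSPA1A and 71.6% of HSPA1B but 23.2% of HSPA8, so the ratios may overstate the distance in level. HSPA13, an HSP70 relative of microsomes, and HSPA14, one bound to ribosomes, had log2 fold changes of -0.09 and -0.17. The value of HSPA13 turned to 0.08 after correction for GC content, and the value of HSPA14 was -0.40 without LY500307 replicate 2 and 0.03 without replicate 1.

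**Figure D2:**
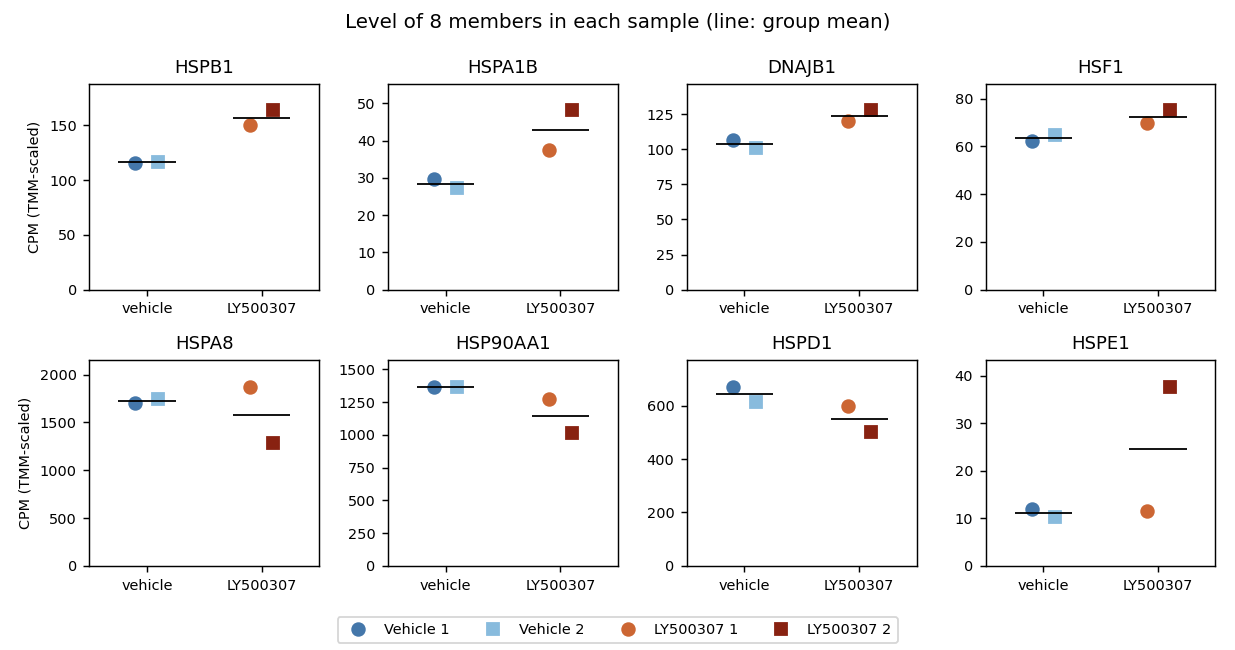
Level of 8 members in each sample, in CPM scaled by TMM (vertical axis from 0), with vehicle samples in blue, LY500307 samples in red and orange, and a line at each group mean. HSPB1, HSPA1B, DNAJB1 and HSF1 were higher in both LY500307 samples, HSPA8 was split at 1873 and 1286 CPM, and HSPE1 reached 37.7 CPM in LY500307 replicate 2 alone.

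The HSP110 proteins exchange the nucleotide of HSP70. HSPA4 was at 682 and 685 CPM with vehicle and at 684 and 557 CPM with LY500307, for a log2 fold change of -0.14 (standard error 0.13). HSPH1, which is also induced by heat, was at 384 and 374 CPM with vehicle and at 360 and 328 CPM with LY500307, so that both treated samples were lower, with a log2 fold change of -0.14 (standard error 0.11) that was not called. After correction for GC content the values were -0.08 for HSPA4 and -0.05 for HSPH1. For HSPA4L the log2 fold change was -0.02 (standard error 0.10), and it was above 0 with library totals alone (0.02), after correction for transcript length (0.04) and after correction for GC content (0.11).

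HSP90 completes the folding of kinases and steroid receptors, the estrogen receptors among them. HSP90AA1, its inducible cytosolic form, was at 1368 and 1366 CPM with vehicle and at 1275 and 1013 CPM with LY500307. HSP90AB1, the constitutive form, was at 1962 and 2026 CPM with vehicle and at 1903 and 1621 CPM with LY500307. For both genes the LY500307 samples lay below the vehicle samples, and neither was called. Their log2 fold changes were -0.26 (standard error 0.13, unadjusted p = 0.0921, edgeR) and -0.18 (standard error 0.12, unadjusted p = 0.183, edgeR). LY500307 replicate 2 was the lower sample in both cases, with -0.43 for HSP90AA1 and -0.30 for HSP90AB1, against -0.10 and -0.07 in replicate 1. The ratio of HSP90AA1 to HSP90AB1 counts was 0.697 and 0.674 with vehicle and 0.670 and 0.625 with LY500307. The cochaperones STIP1 (HOP), which links HSP70 to HSP90, and AHSA1, which speeds the HSP90 ATPase, had log2 fold changes of -0.17 (standard error 0.11) and -0.17 (standard error 0.15). STIP1 was lower in both treated samples, at 417 and 367 CPM against 447 and 437 CPM. AHSA1 overlapped, at 252 and 185 CPM against 234 and 257 CPM. After correction for GC content the values were -0.24 for STIP1, -0.22 for AHSA1, -0.19 for HSP90AA1 and -0.17 for HSP90AB1.

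DNAJB1 (HSP40), the J-domain partner that is induced together with HSP70 under heat shock, was at 107 and 101 CPM with vehicle and at 120 and 128 CPM with LY500307. Both treated samples were higher, with a log2 fold change of 0.25 (standard error 0.10, unadjusted p = 0.0330, edgeR adjusted p = 0.428). The value was 0.18 after correction for GC content (unadjusted p = 0.0912), where the call was lost, as it was with the replicate block (unadjusted p = 0.0796), DESeq2 (unadjusted p = 0.0594) and the length correction (0.21, unadjusted p = 0.0606). It was also lost without vehicle replicate 1 (0.30) and without vehicle replicate 2 (0.21). DNAJB4, another J-domain protein, was at 23.8 and 28.3 CPM with vehicle and at 21.8 and 19.1 CPM with LY500307. Both treated samples were lower, with a log2 fold change of -0.35 (standard error 0.15, unadjusted p = 0.0471, edgeR adjusted p = 0.428). The DNAJB4 transcript has 32.7% GC, and after correction for GC content the log2 fold change was -0.15 (unadjusted p = 0.311). The DNAJB4 call was also lost with DESeq2 (unadjusted p = 0.0635), with library totals alone (unadjusted p = 0.0697) and with the replicate block (unadjusted p = 0.0596). It was lost as well without vehicle replicate 1 (-0.47), without vehicle replicate 2 (-0.22) and without LY500307 replicate 2 (-0.25). DNAJA1 and DNAJA2, which supply clients to HSP70, had log2 fold changes of -0.14 and -0.08 (0.00413 for DNAJA2 after correction for GC content), and DNAJB6 had 0.11. DNAJA1 was split like HSPA8, at 507 and 360 CPM with LY500307 against 480 and 477 CPM with vehicle. In GRCh37, DNAJB1 occupies bases 14625581 to 14671203 of chromosome 19 (minus strand).

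BAG3, which carries HSP70 clients to autophagy and is induced by HSF1, was at 53.7 and 60.4 CPM with vehicle and at 59.2 and 51.5 CPM with LY500307. The groups overlapped, with a log2 fold change of -0.04 (standard error 0.12). The GC correction gave -0.12. BAG1 and BAG2, which also release nucleotide from HSP70, had log2 fold changes of 0.12 and 0.08 (0.11 and 0.21 after correction for GC content), and BAG1 was higher in both treated samples, at 43.1 and 44.2 CPM against 38 and 42.2 CPM.

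HSPD1 (HSP60) and HSPE1 (HSP10) form the mitochondrial chaperonin and are transcribed in opposite directions from a shared promoter region on chromosome 2. HSPD1 was at 671 and 615 CPM with vehicle and at 600 and 503 CPM with LY500307, for a log2 fold change of -0.22 (standard error 0.12, unadjusted p = 0.112, edgeR). HSPE1 was at 11.9 and 10.3 CPM with vehicle and at 11.6 and 37.7 CPM with LY500307, that is at 356, 294, 401 and 1217 reads. HSPD1 was lower in both treated samples, whereas HSPE1 was high in LY500307 replicate 2 only. The log2 fold change of HSPE1 was 1.14 (standard error 0.45, unadjusted p = 0.0361, edgeR adjusted p = 0.428), and leaving out LY500307 replicate 2 gave 0.06, leaving out LY500307 replicate 1 gave 1.76. It was not called with DESeq2 (unadjusted p = 0.150) or after correction for transcript length (0.93, unadjusted p = 0.0590). After correction for GC content HSPE1 was at 1.26 and HSPD1 at -0.15. The ratio of HSPD1 to HSPE1 counts was 56.5 and 59.4 in the vehicle samples, 51.9 in LY500307 replicate 1 and 13.4 in LY500307 replicate 2. The HSPE1 transcript has 557 bases, and 37.2% of its windows of 50 bases had an exact copy elsewhere in GRCh37, as did 41.3% of those of HSPD1. In GRCh37, HSPE1 (from 198364864 to 198368173, plus strand) lies within the annotated span of HSPD1 (from 198351308 to 198381461, minus strand), and the strand setting of the counting is not given in the sources used here.

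The other mitochondrial members showed smaller differences. HSPA9 (mortalin), the mitochondrial HSP70, was at 804 and 776 CPM with vehicle and at 751 and 693 CPM with LY500307, lower in both treated samples, with a log2 fold change of -0.13 (standard error 0.11) that was -0.06 after correction for GC content. TRAP1, the mitochondrial HSP90, and DNAJA3, a mitochondrial J-domain protein, had log2 fold changes of 0.03 (standard error 0.11) and 0.05 (standard error 0.10), and their groups overlapped. Both values turned negative after correction for GC content (-0.05 and -0.03), and that of TRAP1 after correction for transcript length (-0.01) too.

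The 8 subunits of CCT are needed in equal number in the complex. Of these subunits 0 were called, where 6.09% of all genes were called higher and 5.5% lower. CCT3 was the only subunit that was higher in both treated samples, at 797 and 847 CPM against 739 and 722 CPM, with a log2 fold change of 0.17 (standard error 0.11). Lower in both treated samples were CCT5, CCT8 and TCP1 (CCT1). Of all genes, 24.2% were higher in both treated samples and 24.4% lower. CCT5 was at 516 and 508 CPM with vehicle and at 502 and 361 CPM with LY500307, for a log2 fold change of -0.25 (standard error 0.16). CCT8 was at 445 and 456 CPM with vehicle and at 411 and 358 CPM with LY500307, for a log2 fold change of -0.23 (standard error 0.11, unadjusted p = 0.0792, edgeR). After correction for transcript length CCT8 was called lower (-0.29, unadjusted p = 0.0373). TCP1 was at 182 and 181 CPM with vehicle and at 180 and 146 CPM with LY500307, for a log2 fold change of -0.16 (standard error 0.12). For CCT5 and TCP1 the treated samples disagreed, with log2 fold changes of -0.03 and -0.01 in LY500307 replicate 1 and of -0.50 and -0.31 in replicate 2.

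The remaining subunits overlapped between groups. CCT7 was at 994 CPM in each vehicle sample and at 1039 and 830 CPM with LY500307. CCT2 was at 368 and 330 CPM with vehicle and at 352 and 368 CPM with LY500307. CCT4 was at 427 and 408 CPM with vehicle and at 425 and 436 CPM with LY500307, and CCT6A at 422 and 427 CPM with vehicle and at 432 and 382 CPM with LY500307. Their log2 fold changes ran from -0.09 for CCT7 to 0.05 for CCT2. That of CCT2 turned to -0.02 after correction for transcript length, and that of CCT6A from -0.06 to 6.5e-04 after correction for GC content. Per kilobase of transcript, CCT7 was highest, at 538 CPM per kilobase in each vehicle sample and at 563 and 449 with LY500307, and TCP1 was lowest, at 77.4 and 76.9 with vehicle and at 76.4 and 61.9 with LY500307. The highest subunit was 6.96 and 7 times the lowest with vehicle, and 7.36 and 7.26 times with LY500307. Between these ends the distances moved, and CCT3 was at 374 and 365 CPM per kilobase with vehicle and at 403 and 429 with LY500307, next to CCT7. The summed level of the 8 subunits was 4093 and 4026 CPM with vehicle and 4138 and 3728 CPM with LY500307, so that LY500307 replicate 2 alone lay below the controls. The ratio of CCT3 to CCT5 counts was 1.43 and 1.42 with vehicle, and 1.59 and 2.35 with LY500307.

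**Figure D3:**
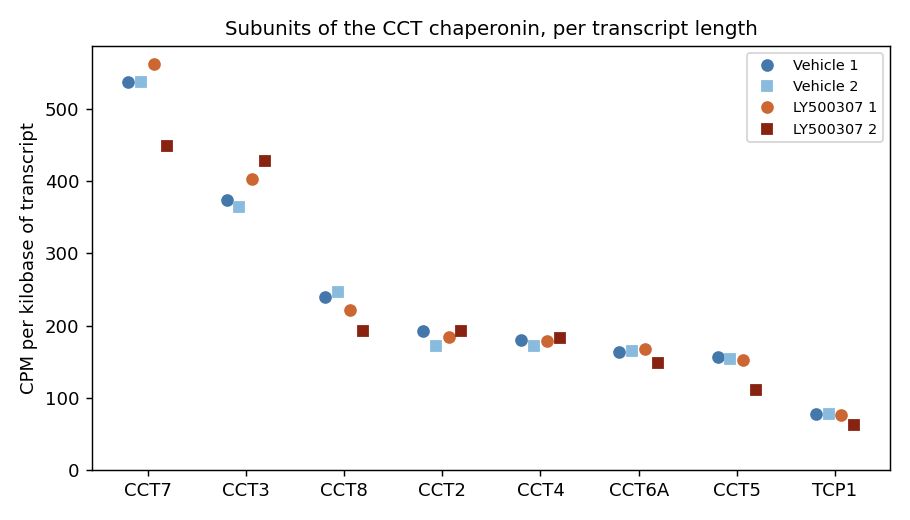
Level of the 8 CCT subunits in each sample, in CPM per kilobase of transcript (vertical axis from 0), ordered from the highest mean to the lowest. CCT7 lies between 449 and 563, and TCP1 between 61.9 and 77.4, in all 4 samples, while CCT5 is at 110 in LY500307 replicate 2.

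Levels differed far more between members than between groups. Per kilobase of transcript, the vehicle means were highest for HSP90AB1 (780 CPM per kilobase) and HSPA8 (761), which differ by less than the gap from either to the next member, CCT7 (538). HSP90AA1 (423), CCT3 (370) and HSPD1 (286) followed. HSPB1 was at 149 per kilobase with vehicle and 202 with LY500307. Heat-inducible members spanned the range, from HSP90AA1 down to HSPH1 (72.3), DNAJB1 (46.3), HSPA1B (11.3), HSPA1A (1.33) and HSPA6 (0.341) with vehicle. Windows of 50 bases with an exact copy elsewhere in GRCh37 made up 75.1% of the HSPA1A transcript, 71.6% of HSPA1B, 56.1% of HSPA6 and 41.3% of HSPD1. The share was 24.6% for HSP90AA1, 23.2% for HSPA8 and 22.5% for HSP90AB1, and 0% for CCT7 and CCT3. Reads with more than 1 alignment were not counted, while levels were divided by the whole transcript length. The levels of genes with copied windows may therefore be understated, and the order of members is uncertain.

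**Figure D4:**
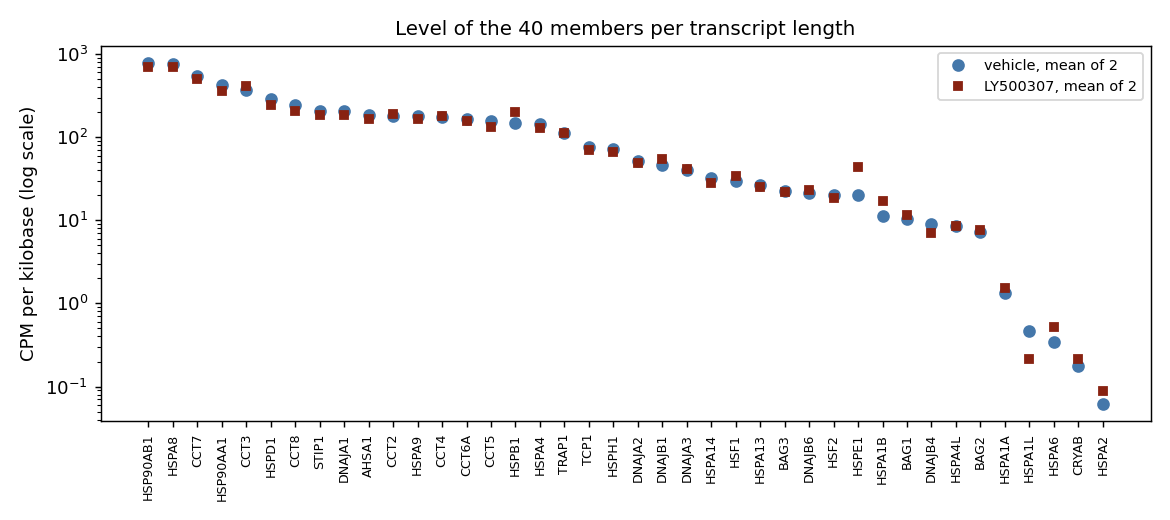
Mean level of the 40 members with vehicle (circles) and LY500307 (squares), in CPM per kilobase of transcript on a log scale, ordered by the vehicle mean. The order runs from 780 for HSP90AB1 to below 1 for HSPA1L, HSPA6, CRYAB and HSPA2, and the 2 groups lie close together for most members.

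Members with 3 heat shock units in a row had log2 fold changes of both signs. Of the 7 members with 3 units in a row, HSP90AA1 (-0.26), HSPD1 (-0.22), HSP90AB1 (-0.18), DNAJA1 (-0.14) and HSPA8 (-0.12) had negative log2 fold changes. HSPA6 (0.62) and DNAJB6 (0.11) had positive ones, as had 50% of all genes. In LY500307 replicate 1 against both vehicle samples, HSPA8 (0.12), DNAJA1 (0.09), HSPA6 (0.25) and DNAJB6 (0.11) were positive. HSP90AA1 (-0.10), HSPD1 (-0.10) and HSP90AB1 (-0.07) were negative there. Without vehicle replicate 1, HSPA6 was at -0.16. HSPA1B and HSPB1 had 1 paired unit each and DNAJB1 had 2 in the window printed above, and the HSPE1 window had none. Other tested members were also higher in both LY500307 samples. Among them DNAJB6 had a run of 3 units, HSPA1A had 1 paired unit, BAG1 and CCT3 had none, and HSF1 had no window. The run of HSPD1 lay in a window that ended before the HSPE1 window began. The difference in matches between HSPD1 and HSPE1 thus depends on where the windows were cut. These counts are given as a description.

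Among 86 other genes of the pathway, 77 were tested. They comprised further HSP70 and HSP90 cochaperones, J-domain proteins, small heat shock proteins, prefoldin and chaperonin cofactors, HSF1 regulators or targets, and mitochondrial chaperones and proteases. Of these, 4 were higher and 3 were lower at an unadjusted p below 0.05 in edgeR's test, where 6.09% and 5.5% of all genes were called, with a median log2 fold change of -0.02, and 0 had an adjusted p below 0.05 with edgeR or DESeq2. PDCL3, a phosducin-like cofactor of CCT, was at 13.4 and 11.9 CPM with vehicle and at 18.5 and 19.2 CPM with LY500307, for a log2 fold change of 0.57 (standard error 0.15). HSPBP1, a nucleotide exchange factor of HSP70, was at 18.9 and 19.6 CPM with vehicle and at 23.9 and 34.3 CPM with LY500307, for a log2 fold change of 0.59 (standard error 0.18). IER5, an early response gene that acts on HSF1, differed by 0.32 on the log2 scale (standard error 0.10), with both treated samples higher, at 74.0 and 70.8 CPM against 58.5 and 57.4 CPM. CHORDC1, an HSP90 cochaperone, was lower in both treated samples, at 81.1 and 55.8 CPM against 98.4 and 95.0 CPM, with a log2 fold change of -0.50 (standard error 0.17). DNAJB5, a J-domain protein, differed by 0.42 on the log2 scale (standard error 0.16), at 27.1 and 21.0 CPM against 17.9 and 18.2 CPM. The other 2 lower genes were AHSA2, a relative of AHSA1 (-0.28), and CLPX, a mitochondrial unfoldase (-0.25), named after their values were seen. The adjusted p of the 5 genes before them lay between 0.422 and 0.423 with edgeR. The transcripts of PDCL3, HSPBP1, IER5, CHORDC1 and DNAJB5 have 43.3%, 63.9%, 49.8%, 34.3% and 54.8% GC, in that order. Of their windows of 50 bases, 47.5%, 0%, 0.8%, 27.5% and 0% had an exact copy elsewhere in GRCh37. Values after correction for GC content are not given for these 5 genes. Among prefoldin and chaperonin cofactors, 1 of the 10 tested was called, PDCL3, and among the other small heat shock proteins 0 of the 3 tested were.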

How the data were processed

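Groups and replicates follow the sample titles. According to the submitters' processing notes and the study's methods, reads were aligned to hg19 with TopHat2 2.0.8b and tallied with HTSeq, and the authors deposited raw counts per gene symbol, without normalization. The gene annotation and the strand setting are not given in the sources used here. The study describes stranded mRNA libraries, and the labels total RNA. Tally lines for reads on no gene, ambiguous reads and alignments that were not unique were left out of library sizes and tests (reads on no gene were 25.5% to 30.8% of gene, no-gene and ambiguous reads). Gene totals ranged from 28841701 to 34943882 counts.

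The test was edgeR 4.0.16 under R 4.3.3 (TMM, filterByExpr, quasi-likelihood test over 14473 genes), which suits raw counts. DESeq2 1.42.0, the tool of the study, was an alternative, beside other size factors and filters, a replicate block, GC and length corrections and leaving out each sample. CPM use TMM-scaled library sizes. A standard error is the absolute log2 fold change divided by the square root of F. Calls used an unadjusted p below 0.05, with or without a log2 fold change above 0.5 in size, the criteria of the study. Transcript length, GC content and positions came from GENCODE transcripts on GRCh37, matched to 91.6% of symbols, with 1 canonical transcript per gene. Corrections removed a loess curve (span 0.3) in each sample. The procedure was tested on simulated counts. Promoter windows came from RefSeq on GRCh38.p14.

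All members were named, with values per sample for those with an unadjusted p below 0.05 and for a set of inducible and constitutive members. Of the other pathway genes, those past the criteria or, where fewer than 5 passed, the 5 with the smallest p were named. HSPA4, HSPA9, STIP1, AHSA1, HSF2, DNAJA1 and BAG1 were given per sample after their values were seen. The members and lists were chosen with earlier results of these data known.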

Additional observations from a re-analysis of the deposited data

How the results depend on the processing

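The number of members with an unadjusted p below 0.05 was 6. DESeq2 gave 2, the replicate block 4, the replicate block with the GC correction 3, and leaving out 1 sample from 2 to 23. The 23 came without LY500307 replicate 1 and 10 came without LY500307 replicate 2, in fits where the lone treated sample is assumed to vary like the vehicle pair, and there 23 and 4 members had an adjusted p below 0.05. It was 2 without vehicle replicate 1 and 3 without vehicle replicate 2. Members that also had a log2 fold change above 0.5 in size numbered 3, 1 with DESeq2, 2 after the GC correction (without HSPA1B), and from 0 to 3 with a sample left out, with 0 without LY500307 replicate 2. Members with a positive log2 fold change numbered 15, and from 14 to 24 with a sample left out. For the CCT subunits this number was 3, and from 2 to 5. The median log2 fold change of the members was -0.08, -0.0405 after the GC correction, -0.0448 with library totals alone, and from -0.117 to 0.0454 with a sample left out, 0.0454 being the value without LY500307 replicate 2. HSPA8 turned from -0.12 to 0.123 in that fit, over a range from -0.419 without LY500307 replicate 1. DESeq2's size factors in edgeR and both other filters on low counts changed no call among the 38 members, library totals alone lost that of DNAJB4, and the GC correction, under which 6 members that were not called changed sign, left 4 of the 6 calls. Same-numbered samples had a correlation of their deviations of -0.07 over all genes tested and -0.23 over the more highly expressed ones, and samples with a number in common were not taken as pairs. With the numbers crossed, which was added once the data had been seen, 6 members had an unadjusted p below 0.05, and 3 members and 381 of all genes had an adjusted p below 0.05, where the fit without a block gave 0. Over all genes, 1678 of 14473 had an unadjusted p below 0.05 in the main test and 1415 of 18407 with DESeq2. The replicate block gave 1623 of 14473, and the replicate block with the GC correction 1500 of 14473. Without LY500307 replicate 1 or replicate 2, calls rose over all genes too, so those member counts alone show no response of the members. For all of these shifts the cause was not tested.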
